A study of Mus musculus with 2 samples.

Results

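Translation initiation and elongation factors are the proteins that place the ribosome on the start codon of an mRNA and then move it along the message. The genes described here are the autosomal protein-coding genes whose GENCODE symbol begins with Eif or Eef, a rule that reads symbols and not levels. The rule gave 65 genes, 52 with an Eif symbol and 13 with an Eef symbol, out of 20337 autosomal protein-coding genes and 43346 mouse genes in the files. The tissue was the heart of mouse embryos of strain B6NCrl, taken 11.5 days into development, a stage at which the chambers form. Total RNA, recorded as over 200 bases in size, was sequenced in 2 libraries of the same kind of sample. Each came from pooled male and female embryos: replicate 1 from 109 embryos, while no number is given for replicate 2. The labels record separate biosamples under the same donor identifier, and they name no treatment or engineered allele, so the study has a single group and no contrast between conditions.

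In initiation, eIF2 carries the initiator tRNA to the small ribosomal subunit, eIF3 and the small factors eIF1 and eIF1A prepare that subunit to scan, and the eIF4 factors bring in the capped mRNA. In elongation, eEF1A delivers each aminoacyl-tRNA, eEF1B recharges eEF1A with GTP, and eEF2 moves the ribosome on by a codon. Several of these factors exist as paralogs, and the best known switch is that of eEF1A: Eef1a1 is used by most cells, while Eef1a2 takes over in adult heart, skeletal muscle and neurons.

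Promoter sequences are shown for Eef1a1, Eef1a2 and Eef2, because the contrast in level between the eEF1A genes is the widest among the pairs compared and Eef2 encodes the partner factor of elongation. They come from the RefSeq promoter table on GRCm38.p6 and run from 250 bases before the RefSeq start to 30 bases after it, written 5′ to 3′ on the strand of the gene. Capitals mark every match, on either strand, to 4 motifs: GGGCGG (the GC box), TATAAA (the TATA box), TGACGTCA (the cAMP response element) and CACGTG (the E-box). The windows are chr9:78481695-78481974 (minus strand) for Eef1a1, chr2:181156986-181157265 (minus strand) for Eef1a2 and chr10:81176381-81176660 (plus strand) for Eef2.
Eef1a1: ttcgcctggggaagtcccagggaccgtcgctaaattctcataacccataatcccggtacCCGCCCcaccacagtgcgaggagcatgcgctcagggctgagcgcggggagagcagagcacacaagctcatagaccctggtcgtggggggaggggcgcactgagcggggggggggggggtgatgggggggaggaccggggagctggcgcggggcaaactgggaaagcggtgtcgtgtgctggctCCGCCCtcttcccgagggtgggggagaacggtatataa
Eef1a2: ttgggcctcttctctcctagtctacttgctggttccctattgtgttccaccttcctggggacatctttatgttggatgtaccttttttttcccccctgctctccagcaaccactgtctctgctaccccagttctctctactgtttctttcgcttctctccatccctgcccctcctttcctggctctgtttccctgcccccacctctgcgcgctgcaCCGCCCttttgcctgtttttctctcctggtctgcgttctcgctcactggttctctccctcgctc
Eef2: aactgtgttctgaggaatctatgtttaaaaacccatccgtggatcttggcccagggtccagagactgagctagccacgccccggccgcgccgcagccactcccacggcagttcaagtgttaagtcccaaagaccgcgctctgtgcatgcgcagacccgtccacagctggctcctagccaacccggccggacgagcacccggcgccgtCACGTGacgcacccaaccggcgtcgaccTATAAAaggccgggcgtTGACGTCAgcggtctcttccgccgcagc

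The Eef1a1 window held 2 GC boxes and the Eef1a2 window held 1, and neither held a match to the other motifs. Over the full 300 bases of the table, G and C made up 66.7% of the Eef1a1 window with 22 CpG dinucleotides, and 55.0% of the Eef1a2 window with 8. The Eef2 window held 1 TATA box, 1 cAMP response element and 1 E-box, with 34 CpG dinucleotides in 300 bases. The RefSeq starts lie within 1 base of the annotated start of the most abundant transcript of each gene, but GENCODE places other Eef1a1 transcripts farther upstream, up to the gene's end at 78489151, and which start was used is not measured here. A match is only a string of letters in the window, and the measured RNA says nothing about binding there.

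Almost every translation factor gene was expressed in these hearts. Of the 65 genes, 63 (96.9%) reached 1 TPM or more in both libraries, against 11681 of 20337 (57.4%) of all autosomal protein-coding genes. TPM is a transcript level per length, scaled to 1 sum in each library. A level of 100 TPM or more in both was reached by 25 of the factors (38.5%) and by 1098 (5.40%) of all those genes. The median factor stood at 53.7 TPM in replicate 1 and 61.4 TPM in replicate 2 (57.5 ± 5.42, SD, n = 2), against 3.23 and 3.20 TPM for the median of all autosomal protein-coding genes. Summed, the factors held 11449 TPM in replicate 1 and 11324 TPM in replicate 2, or 1.36% ± 0.00138 of the TPM in mouse genes (SD, n = 2).

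A few genes carried most of that sum. Eef1a1 alone made up 25.9% of it in replicate 1 and 24.9% in replicate 2. Together, Eef1a1, Eif1, Eif5a, Eif4g2 and Eif4a1 made up 55.6% and 54.3%. The genes under 1 TPM were Eef1akmt3, at 0.23 TPM in replicate 1 (17 counts) and 0.27 TPM in replicate 2 (14 counts), and Eif4e1b, a cap-binding paralog known from oocytes, which had 0 counts in both. A count of 0 allows up to 3 counts, which is 0.0871 CPM (counts scaled by the library's total in mouse genes) in replicate 1 and 0.119 CPM in replicate 2, for counting error only. The next lowest genes, Eif2ak3 and Eef1a2, both lay above 3 TPM in each library, so no factor was close to the limit of 1 TPM.

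**Figure D1:**
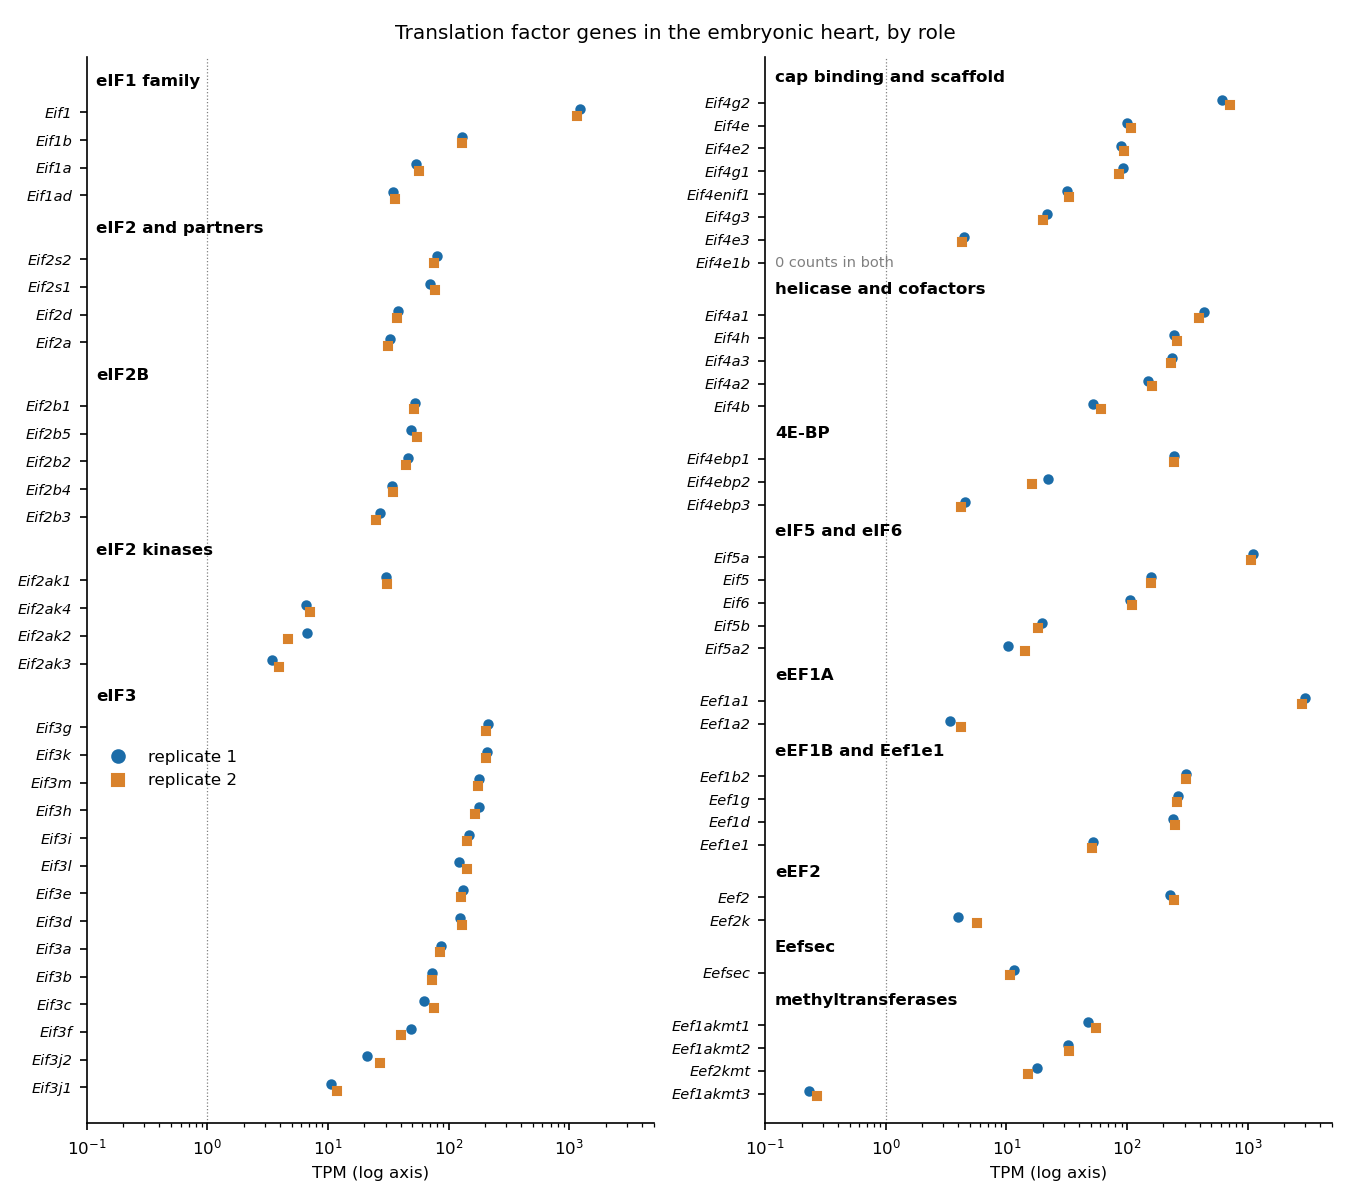
TPM (log axis) of the 65 translation factor genes in replicate 1 (blue circles) and replicate 2 (orange squares), grouped by role and ordered by mean level, with a dotted line at 1 TPM. The libraries lie close together for most genes, Eef1a1 stands at the top with 2968 and 2824 TPM, and Eef1a2 lies near 4 TPM.

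The elongation factor eEF1A came almost wholly from Eef1a1. Eef1a1 (ENSMUSG00000037742.10, chromosome 9, 78478449 to 78489151, minus strand, GRCm38) had 2968 TPM from 119665 counts in replicate 1 and 2824 TPM from 83633 counts in replicate 2 (2896 ± 102, SD, n = 2). It ranked 17 among the autosomal protein-coding genes. Eef1a2 (chromosome 2) had 3.39 TPM from 192 counts in replicate 1 and 4.23 TPM from 169 counts in replicate 2 (3.81 ± 0.594, SD, n = 2). Eef1a1 was thus 876-fold above Eef1a2 in replicate 1 and 668-fold above it in replicate 2, a log2 ratio of 9.58 ± 0.28 (SD, n = 2). Eef1a2 supplied 0.114% and 0.15% of the summed eEF1A TPM.

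Low as it was, Eef1a2 was detected in both libraries. None of the 100-base windows of its transcript occurs in another annotated transcript. For Eef1a1 the share of such windows was 26.7%, and the 3 processed pseudogenes with rows in the files held 0.190% and 0.195% as many counts as Eef1a1. Markers of the other tissues that use Eef1a2 were low, with similar sums in both libraries. The 4 neuron markers (Tubb3, Stmn2, Snap25, Elavl4) were all detected and summed to 26.8 TPM in replicate 1 and 28.2 TPM in replicate 2. Of 4 skeletal muscle markers, Myog, Ckm and Actn3 were detected in both and Myod1 was not, with sums of 13.9 and 15.7 TPM and none at 0. Myod1 itself differed, with 57 counts in replicate 1 and 23 in replicate 2. Their part in the Eef1a2 level was not tested. In bulk tissue, fewer cells of a type and less RNA per cell cannot be told apart.

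The partners of eEF1A were expressed at a lower and even level. The nucleotide exchange complex eEF1B is made of the products of Eef1b2, Eef1g and Eef1d. Eef1b2 had 306 and 308 TPM in replicates 1 and 2, Eef1g had 264 and 261 TPM, and Eef1d had 239 and 251 TPM. The highest subunit was 1.25 ± 0.0397 times the lowest (SD, n = 2), and Eef1b2 and Eef1d were not set apart by the rule for pairs given with the initiation factors. Eef1a1 was 9.70 times Eef1b2 in replicate 1 and 9.18 times in replicate 2, a ratio chosen after the values were seen. In the Eef1g transcript 49.4% of the 100-base windows also occur elsewhere, so its level is less certain. The 2 processed pseudogenes quantified among these held 0.0625% and 0.0587% as many counts as Eef1g.

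The translocase gene Eef2 had 228 TPM in replicate 1 and 246 TPM in replicate 2 (237 ± 12.8, SD, n = 2), all from its only annotated transcript. Eef2 was below Eef1a1 by a log2 ratio of -3.61 ± 0.13 (SD, n = 2), or 12.2-fold. Its inhibitory kinase gene Eef2k was low, at 3.98 TPM in replicate 1 and 5.71 TPM in replicate 2. Eefsec, which brings selenocysteine to the ribosome, had 11.6 and 10.7 TPM. Eef1e1, whose product is a member of the multi-tRNA synthetase complex, had 52.3 and 51.5 TPM. Of the lysine methyltransferase genes, Eef1akmt1 was highest at 47.0 TPM in replicate 1 and 55.6 TPM in replicate 2, Eef1akmt2 had 32.1 and 32.8 TPM, and Eef2kmt had 17.9 and 15.1 TPM. Eef2kmt overlaps its neighbour Alg1, and reads from the shared stretch were divided by the authors' model.

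Among the initiation factors, the start-codon selection factor Eif1 had the highest gene level, with 1234 TPM in replicate 1 and 1163 TPM in replicate 2. Eif1b, its paralog, had 129 and 130 TPM, a log2 ratio of Eif1 to Eif1b of 3.21 ± 0.06 (SD, n = 2), or 1.67 on protein-coding transcripts alone. Much of the Eif1 level came from short non-coding transcripts, described with the isoforms. Eif1a, a scanning factor, had 53.7 TPM in replicate 1 and 56.6 TPM in replicate 2. Eif1ad, which carries an eIF1A-like domain, had 34.8 and 35.7 TPM and overlaps Banf1.

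The eIF2 subunit genes on autosomes differed by no more than their spread. Eif2s1, the alpha subunit whose phosphorylation slows initiation, had 70.1 TPM in replicate 1 and 76.7 TPM in replicate 2. Eif2s2, the beta subunit, had 80.1 and 75.9 TPM. Which of them was higher differed between the libraries, and their log2 ratio was -0.09 ± 0.15 (SD, n = 2). Eif2a and Eif2d, which can bring initiator tRNA to the ribosome without eIF2, had 32.5 and 31.6 TPM and 38 and 37.4 TPM, a log2 ratio of -0.24 ± 0.01 (SD, n = 2). On protein-coding transcripts alone it was -1.21, which is past the limit for pairs.

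The exchange factor eIF2B, the target of phosphorylated eIF2, was lower than the autosomal eIF2 subunits and than the median eIF3 subunit. Its 5 subunit genes lay between Eif2b3, at 27.1 TPM in replicate 1 and 25.2 TPM in replicate 2, and Eif2b1, at 52.8 and 51.5 TPM. Eif2b5, the catalytic subunit, had 48.6 and 54.9 TPM and was the highest of the 5 in replicate 2. Highest over lowest was 2.06 ± 0.163 (SD, n = 2). The median eIF3 subunit was 2.91 ± 0.164 times the median eIF2B subunit (SD, n = 2), a ratio chosen after the values were seen.

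Of the 4 kinases that phosphorylate eIF2, the heme-regulated Eif2ak1 was the most abundant, with 29.99 TPM in replicate 1 and 30.7 TPM in replicate 2. It held 64.1% and 66.2% of the summed kinase TPM. Eif2ak4, which senses uncharged tRNA, had 6.58 and 7.13 TPM. Eif2ak2, the double-stranded RNA sensor PKR, had 6.76 TPM in replicate 1 and 4.63 TPM in replicate 2, and Eif2ak3, the endoplasmic reticulum sensor PERK, had 3.43 and 3.89 TPM. Eif2ak1 was above Eif2ak2 by a log2 ratio of 2.44 ± 0.41 (SD, n = 2), or 3.35 on protein-coding transcripts alone. Eif2ak4 was above Eif2ak3 by 0.91 ± 0.05, which fell under the limit for pairs at 0.75 with a pseudocount of 1. Erythroid cells, in which Eif2ak1 is best known, were present: the 5 erythroid markers summed to 45249 TPM in replicate 1 and 38055 TPM in replicate 2 with none at 0, and their part in the Eif2ak1 level was not tested.

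The genes of eIF3, the large complex that bridges the small subunit and the eIF4 factors, varied 4.72-fold ± 0.490 from highest to lowest (SD, n = 2). Eif3g was the highest of the 12 subunits compared, at 212 TPM in replicate 1 and 205 TPM in replicate 2, and Eif3f the lowest, at 48.4 and 40.5 TPM. The order of the subunits was much the same in both libraries (Spearman's rho 0.958 over 12 genes of a pair of libraries, as a description). Eif3g and Eif3k stood above 200 TPM in both libraries, and Eif3k had 208 and 204 TPM. Eif3j1 and Eif3j2, near-identical copies of the loosely bound j subunit, had 10.5 and 11.9 TPM and 21.1 and 27.0 TPM. Their values are uncertain, because 47.6% of the 100-base windows of Eif3j1 and 84.0% of those of Eif3j2 occur in other transcripts, and on counts without length the order of the copies turned round (log2 ratio 0.08, against -1.09 ± 0.12 on TPM, SD, n = 2).

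The cap-binding genes Eif4e and Eif4e2 were not set apart by the rule for pairs. Eif4e, the cap-binding subunit of eIF4F, had 100.3 TPM in replicate 1 and 108 TPM in replicate 2. Eif4e2, a cap-binding paralog that can repress translation, had 88.4 and 94.6 TPM, and the log2 ratio of Eif4e to Eif4e2 was 0.19 ± 0.01 (SD, n = 2). Eif4e3 was 23.9-fold below Eif4e, at 4.46 and 4.26 TPM. Eif4enif1, which carries eIF4E to the nucleus and to P-bodies, had 31.9 TPM in replicate 1 and 33.2 TPM in replicate 2.

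The scaffold family was led by its member that does not bind the cap-binding protein. Eif4g2 (DAP5) had 611 TPM in replicate 1 and 715 TPM in replicate 2, Eif4g1 had 93.2 and 85.1 TPM, and Eif4g3 had 21.6 and 20.2 TPM. Eif4g2 made up 84.2% and 87.2% of the family's TPM. The log2 ratio of Eif4g1 to Eif4g2 was -2.89 ± 0.25, and that of Eif4g1 to Eif4g3 was 2.09 ± 0.03 (SD, n = 2). The helicase gene Eif4a1 had 436 TPM in replicate 1 and 392 TPM in replicate 2, against 149 and 162 TPM for its paralog Eif4a2 and 234 and 232 TPM for Eif4a3, a core of the exon junction complex. Eif4a1 was above Eif4a3 by a log2 ratio of 0.83 ± 0.10 (SD, n = 2), just past the limit for pairs, and replicate 2 alone gave 0.76, which is under it. Eif4a1 was above Eif4a2 by a log2 ratio of 1.41 ± 0.19 (SD, n = 2), and by 2.40 on protein-coding transcripts alone. In the Eif4a1 transcript 60.8% of the windows also occur elsewhere, and the pseudogene Eif4a-ps4 held 394.7 counts in replicate 1 and 297 in replicate 2. Over the eIF4F genes Eif4a1, Eif4e and Eif4g1, highest over lowest was 4.64 ± 0.0555 (SD, n = 2). The helicase cofactors differed as well: Eif4h had 245 and 259 TPM, while Eif4b had 51.8 and 61.4 TPM.

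Of the eIF4E-binding proteins, which compete with the scaffold for eIF4E, Eif4ebp1 was dominant. Eif4ebp1 had 247 TPM in both libraries (247 ± 0.163, SD, n = 2), Eif4ebp2 had 21.9 TPM in replicate 1 and 16.3 TPM in replicate 2, and Eif4ebp3 had 4.54 and 4.22 TPM. The Eif4ebp3 level is less certain, since 62.8% of its 100-base windows also occur in another gene of GENCODE M21. That gene was not among those quantified by the authors. Eif4ebp1 was 13.1-fold above Eif4ebp2, a log2 ratio of 3.71 ± 0.30 (SD, n = 2), or 2.77 on counts without length. The transcripts quantified were shorter than those of the same name in GENCODE M21. Eif4ebp1 had 981 against 1997 bases, Eif4ebp2 1786 against 5784 and Eif4e 2882 against 4991. The effect of these lengths on the levels was not tested. The 3 genes together reached 2.72 times the level of Eif4e in replicate 1 and 2.48 times in replicate 2, a ratio chosen after the values were seen. RNA levels do not show how much of the inhibitor was phosphorylated.

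Late initiation factors and eIF5A spanned a wide range. Eif5a, whose hypusine-modified product helps the ribosome past difficult peptide bonds, had 1111 TPM in replicate 1 and 1056 TPM in replicate 2, against 10.4 and 14.2 TPM for its paralog Eif5a2. Their log2 ratio was 6.48 ± 0.37 (SD, n = 2). Eif5, which triggers GTP hydrolysis on eIF2, had 159 and 158 TPM. Eif5b, the GTPase that joins the ribosomal subunits, had 19.8 and 18.1 TPM. Eif6, which keeps the large subunit apart, had 105 TPM in replicate 1 and 109.8 TPM in replicate 2.

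Of 24 pairs of related genes, 23 had a ratio, and 19 of these were apart. A pair was called apart where the same gene was higher in both libraries and the mean log2 ratio passed 0.82, which is the square-root-of-2 multiple of 0.58, the 95th percentile of the difference in log2 TPM between the libraries over autosomal protein-coding genes at 1 TPM or more in both. The limit covers differences between libraries only, and not differences between genes in length or mapping. How many pairs of unrelated genes would be apart by this rule was not computed, so the count is a description only. No p is attached to the 23 ratios, because a sign-flip test over 2 libraries cannot go below an exact p of 0.5. The pairs not apart were Eif4e with Eif4e2, Eif2a with Eif2d, Eif2s1 with Eif2s2 and Eef1b2 with Eef1d. Their equality is not shown by this, and each ratio with its SD is given with its genes.

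**Figure D2:**
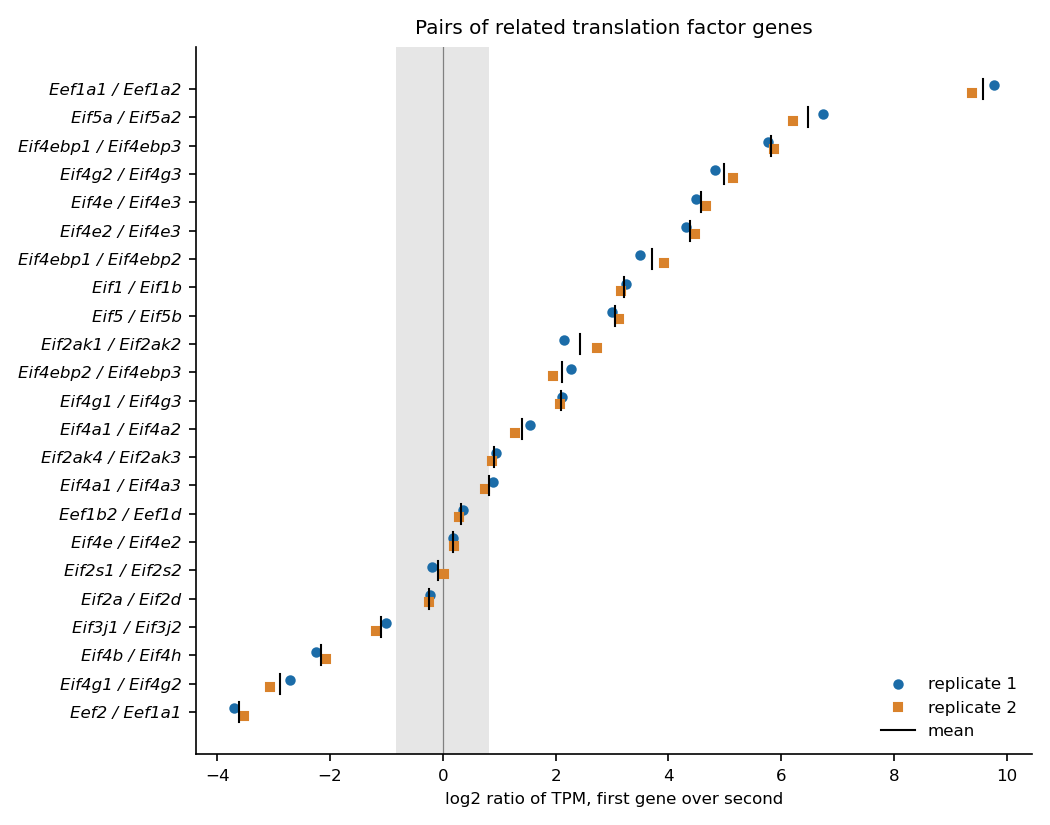
Log2 ratio of TPM, first gene over second, for 23 pairs of related translation factor genes, in replicate 1 (blue circles), in replicate 2 (orange squares) and as their mean (black line). The grey band spans the limit of 0.82 on either side of 0; 4 pairs lie inside it, and Eef1a1 over Eef1a2 lies farthest out at 9.58.

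The gene level can mislead where transcripts of different kinds add up. Of the 64 genes with a count, 26 had a single annotated transcript. Of the other 38, 35 (92.1%) had the same most abundant transcript in both libraries, and 27 (71.1%) had over 50% of their TPM in it in both. Among all autosomal protein-coding genes with several transcripts and 1 TPM or more in both, these shares were 89.6% and 70.6%. Eif1 departed from this: a non-coding transcript of 383 bases made up 46.0% of its TPM in replicate 1 and 43.5% in replicate 2, and protein-coding transcripts 33.8% and 35.2%. The main protein-coding transcript of Eef1a1, of 1794 bases, held 77.7% and 82.2% of the Eef1a1 TPM. Most of the rest was in a non-coding transcript of 505 bases, with 20.9% and 16.6%.

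Transcripts annotated as targets of nonsense-mediated decay, a pathway that removes mRNAs with an early stop codon, were a sizeable share of several factors. They made up 39.9% of Eef1b2 in replicate 1 and 39.1% in replicate 2, and 47.5% and 43.6% of Eif2a. In Eif4a2 they made up 25.9% and 19.3%, with a further 29.1% and 27.9% in transcripts that keep an intron. Retained introns also made up 39.4% and 44.3% of Eif2ak2, and 34.0% and 28.8% of Eif5b. Which transcript was highest differed between the libraries for Eif2a, Eif4a2 and Eif4g3. All of these shares are the authors' estimates from short reads. The same shares were not computed over all genes, so they do not set the factors apart from other genes.

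Counting protein-coding transcripts alone, an alternative added after the data were seen, changed the order near the top. Eef1a1 stayed first at 2319 ± 10.5 TPM, followed by Eif5a at 1084 ± 38.9, Eif4g2 at 531 ± 83.0, Eif1 at 413 ± 5.35 and Eif4a1 at 400 ± 29.2 (SD, n = 2 each). Eif1 thus moved from place 2 to place 4 among the factors. Eef1b2 dropped to 174 ± 0.424 TPM, below Eef1d at 237 ± 8.61, which turned the order of that pair round.

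**Figure D3:**
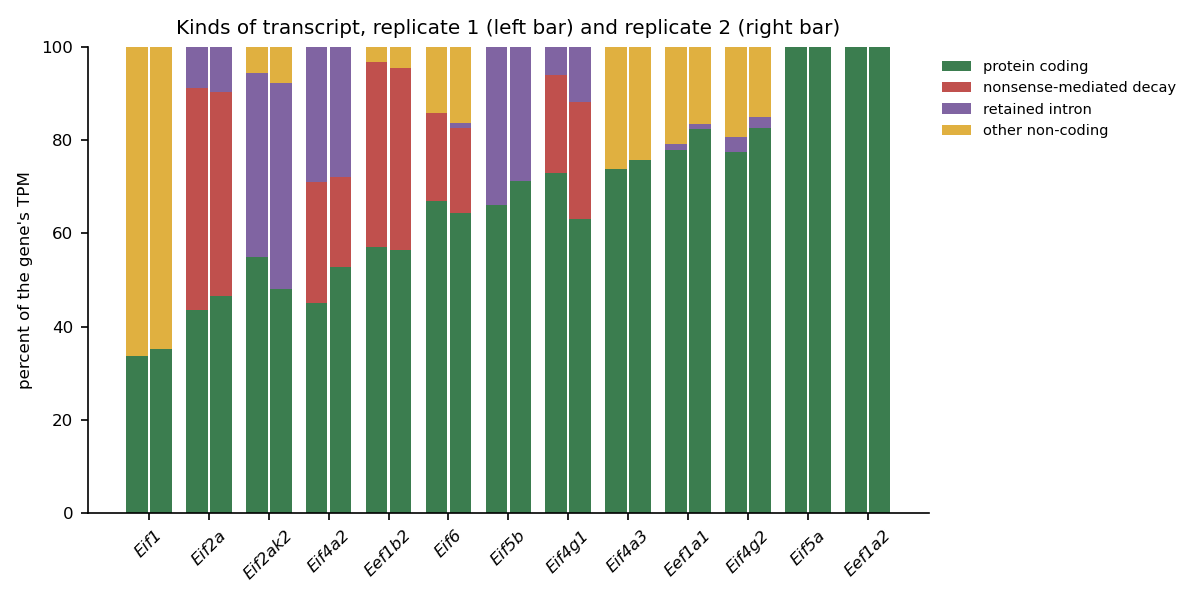
Percent of each gene's TPM in protein-coding transcripts (green), targets of nonsense-mediated decay (red), transcripts with a retained intron (purple) and other non-coding transcripts (yellow), with replicate 1 as the left bar and replicate 2 as the right bar, for 13 translation factor genes. Protein-coding transcripts make up the smallest share in Eif1, at 33.8% and 35.2%, and the whole of Eif5a and Eef1a2.

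Differences between the libraries were small for most of these genes, as for most expressed genes. Of the 64 with at least 20 counts over both libraries, 1 was past 1.5-fold, against 14.5% of the 16621 genes with such a count. At 1 TPM or more in both, it was 1 of 63 factors, against 3.92% of the 11681 autosomal protein-coding genes. That gene was Eif2ak2, with 498 counts in replicate 1 and 217 counts in replicate 2. Its log2 ratio of replicate 1 over replicate 2 was 0.74 (95% Clopper-Pearson interval 0.51 to 0.98, for counting error only). No factor was past 2-fold, against 6.08% of all genes tested and 0.582% of the autosomal protein-coding genes at 1 TPM or more in both. The next were Eif4ebp2 at 0.48, Eef2k at -0.42 and Eif5a2 at -0.41. The size of the log2 ratio had a median of 0.10 over the factors, against 0.14 over the autosomal protein-coding genes at 1 TPM or more in both. Those genes were not matched to the factors by level.

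The counting interval left out equality for 38 of the 64 factors, against 45.9% of all genes tested. At 1 TPM or more in both, it did so for 38 of 63 factors and 50.3% of the autosomal protein-coding genes. The share was larger in the factors both times, but the interval narrows as counts grow, and levels were not matched. The larger share does not show larger differences: the median size of the log2 ratio was 0.10 over the factors. Over the autosomal protein-coding genes at 1 TPM or more in both it was 0.14. Eef1a1 was among the 38, at a log2 ratio of 0.06 (interval 0.05 to 0.08). Eef1a2 was not, at -0.27 (interval -0.58 to 0.04). Other genes did move between the pools. The 3 liver markers (Afp, Alb, Apoa1) summed to 137.5 TPM in replicate 1 and 22.9 TPM in replicate 2 with none at 0, the 4 endothelial markers to 224 and 258 TPM, and the 3 mesenchyme markers to 433 and 532 TPM. The 5 erythroid markers summed to 45249 and 38055 TPM. All 6 cardiomyocyte markers were detected in both libraries, at sums of 18324 and 19853 TPM. Their log2 ratios of replicate 1 over replicate 2 ran from -0.47 for Myh6 and -0.31 for Myh7 to 0.06 for Tnnt2. The part of these shifts in the Eif2ak2 ratio was not tested.

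**Figure D4:**
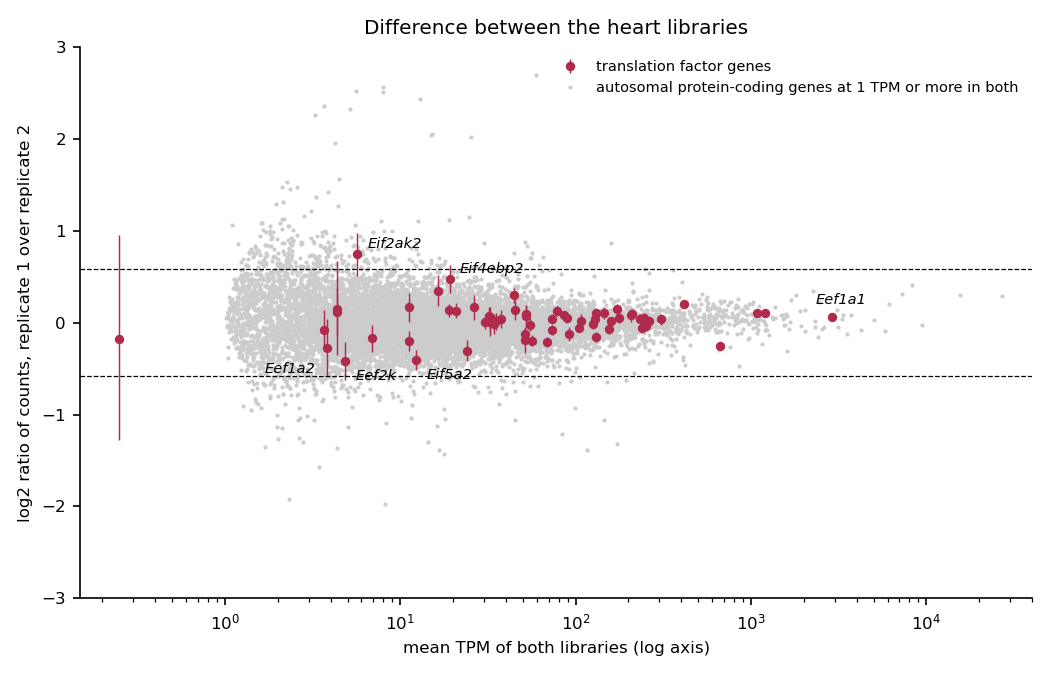
Log2 ratio of counts, replicate 1 over replicate 2, against mean TPM (log axis), for the translation factor genes with a count (red, with 95% counting intervals) and for all autosomal protein-coding genes at 1 TPM or more in both (grey). Dashed lines mark 1.5-fold; among the factors Eif2ak2 alone lies past them, at 0.74.

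Set beside the other parts of the translation machinery, the factors lay well below the ribosomal proteins. The list of cytosolic ribosomal proteins held 81 autosomal genes taken by symbol, with paralogs such as Rpl10l, Rpl39l and Rpl3l among them. At 1 TPM or more in both libraries there were 78. The 81 genes had a median of 536 TPM in replicate 1 and 484 TPM in replicate 2. They held 5.24% and 4.95% of the TPM in mouse genes, and those on the X chromosome were not in the list. Eef1a1 was 5.54 and 5.83 times the median ribosomal protein gene, also a ratio chosen after the values were seen. A list of 25 other translation genes, which holds release factors, poly(A)-binding proteins, mTOR pathway genes and regulators of the stress response, had all 25 at 1 TPM or more in both and a median of 34.0 ± 3.30 TPM (SD, n = 2). The 6 mitochondrial initiation and elongation factor genes were all detected as well, with a median of 47.1 ± 0.431 TPM.

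**Figure D5:**
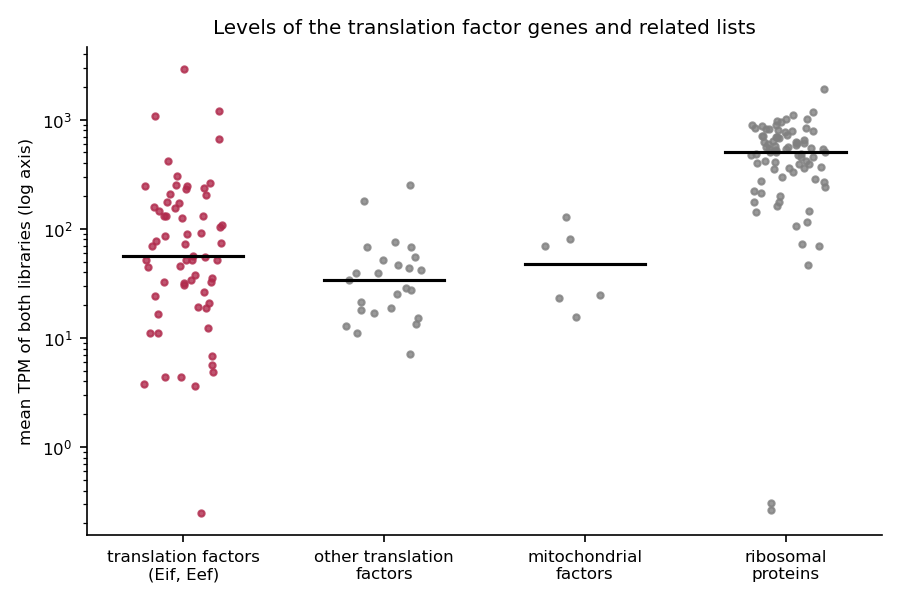
Mean TPM of both libraries (log axis) for each gene of 4 lists, with the median of each list as a black line and genes at 0 (Eif4e1b and 1 ribosomal protein gene) left out of the points. Ribosomal protein genes, autosomal only, lie highest as a list, and Eef1a1, the top point of the translation factors, lies above all of those shown.

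The promoters of the factors were rich in G and C. Of the 65 genes, 49 had a window in the RefSeq table, with a median of 62.2% G and C and 23.5 CpG dinucleotides in 300 bases, against 57.3% and 14 for the windows of 15483 autosomal protein-coding genes. GGGCGG occurred in 73.5% of the factors and in 52.1% of those genes, and TATAAA in 8.16% and 14.2%. CCAAT occurred in 32.7% and 41.7%, and TGACGTCA in 2.04% and 2.72%. CACGTG, the E-box read by MYC and related factors, occurred in 12 of the 49 (24.5%), against 9.28% of those genes. These 12 were Eef2, Eef2k, Eif1b, Eif3a, Eif3f, Eif3k, Eif4a1, Eif4e, Eif4g1, Eif4h, Eif5a and Eif5a2. Both strands were searched and the windows of 1 gene were pooled, so genes with several starts had more chances of a match. The 15483 genes were not limited to expressed ones, while most factors were expressed. A comparison with expressed genes alone was not made.

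E-box matches are shown for the genes of eIF4F, the cap-binding complex, with up to 30 bases on either side, from the same table, 5′ to 3′ on the strand of the gene, and with CACGTG in capitals. The stretches are chr11:69672577-69672642 (minus strand) for Eif4a1, chr3:138527018-138527075 and chr3:138527174-138527239 (plus strand) for the first and second Eif4e match, and chr16:20672643-20672708 (plus strand) for Eif4g1.
Eif4a1: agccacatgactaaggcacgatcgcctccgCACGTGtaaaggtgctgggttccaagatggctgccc
Eif4e, first match: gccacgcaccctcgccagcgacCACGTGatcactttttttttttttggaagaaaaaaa
Eif4e, second match: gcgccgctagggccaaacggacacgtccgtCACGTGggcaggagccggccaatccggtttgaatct
Eif4g1: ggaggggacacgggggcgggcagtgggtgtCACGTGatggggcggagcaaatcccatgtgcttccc

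Before the RefSeq start of their window, the matches began at base -189 in Eif4a1, -228 and -64 in Eif4e, and -54 in Eif4g1. Both Eif4e matches lie in the same window, chr3:138527018-138527317. The window of the other Eif4e start in the table, chr3:138525941-138526240, held no match. Eif4g1 has a further match at base 16 after the start, which is not printed. Many translation mRNAs begin with a C and a run of pyrimidines, the terminal oligopyrimidine motif through which mTOR controls their translation. A C followed by 4 pyrimidines, on the strand of the gene with its first base within 5 bases of the RefSeq start, was found in 12 of the 49 factors (24.5%), against 22.1% of the autosomal protein-coding genes. With the first base allowed within 15 bases, it was found in 40.8% of the factors and 45.8% of those genes, and with 6 pyrimidines in place of 4, in 12.2% and 7.82%. At the annotated start of the most abundant transcript, searched from its first base onward, the run was found in 12 of 65 factors (18.5%) and in 10.8% of 20312 autosomal protein-coding genes. Only Eif2ak3, Eif2b2 and Eif3f carried it in both searches, which differ in the start and in the bases searched around it. Eef1a1 carried it only in the RefSeq search, although its starts coincide. The members found thus depend on how the start was searched. Annotated starts can lie some bases from the used ones.

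The factor genes are spread over all 19 autosomes. Chromosome 15 held 6 of the 65 (9.23%), against 3.76% of all autosomal protein-coding genes: Eif3d, Eif3e, Eif3h, Eif3l, Eif4b and Eef1d. These 6 ranged from Eif4b, at 51.8 and 61.4 TPM, to Eef1d, at 239 and 251 TPM.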

How the data were processed

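Expected counts (estimated reads per gene, not normalized) and TPM were deposited by the authors for each gene and transcript of both libraries, per the file headers, together with posterior means and the percent of a gene's TPM in each transcript, which the authors deposited too. Per the labels, 10 ng of mirVana-extracted RNA with spike-ins entered each library, and a SmartSeq protocol is attached. The README texts name mm10 and M4. Not given in the sources used here: aligner, quantifier, versions and strand setting, so a gene and an antisense partner cannot be told apart. Symbols, types and positions came by identifier from GENCODE M21 on GRCm38, which matched 42462 of 43346 mouse genes (98.0%). Eef1akmt4 was not analysed here.

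The total of expected counts was 37617442 for replicate 1 and 27642765 for replicate 2, and a chi-square of 24.8 per gene over 16621 genes shows that they are not copies of 1 library. Levels are the mean and SD of TPM over both. That the libraries are biological replicates rests on the labels, and the SD may be partly technical. Counts, rounded to whole numbers, were compared between libraries with TMM factors (edgeR 4.0.16 in R 4.3.3) and 0.5 added to each count, for genes with a summed count of 20 or more. The 95% intervals are exact Clopper-Pearson intervals and cover counting error only. A gene was counted as detected at 1 TPM or more in both libraries. Windows of 100 bases of each main transcript were searched in the transcripts of all other genes in GENCODE M21, not in M4. The interval calculation was tested on simulated data. Alternatives were posterior mean TPM, other limits, a pseudocount of 1, counts without length, DESeq2 1.42.0 size factors, protein-coding transcripts alone and leaving out either library. Python 3.11.15 with pandas 2.3.3, numpy 2.4.6, scipy 1.17.1 and matplotlib 3.10.9 was used.

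The members, lists, pairs and motifs were chosen with earlier results of these data known. Full values are given for Eef1a1, Eef1a2, genes of a listed pair, the highest and lowest gene of each role, genes under 1 TPM and genes past 1.5-fold between libraries, and other members are given by range, count or short values. Coding-transcript TPM, starts of abundant transcripts, shares over genes with several transcripts, ratios between levels and the E-box stretches shown were added after seeing the data.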

Additional observations from a re-analysis of the deposited data

Results flagged for a closer look

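Genes for translation factors on the sex chromosomes lie outside the rule and were detected in both pools, which hold embryos of both sexes. Eif1ax, the X-linked relative of Eif1a, averaged 77.3 ± 1.11 TPM (SD, n = 2). Eif2s3x and Eif2s3y, which encode the gamma subunit of eIF2 from the X and Y chromosomes, averaged 53.7 ± 2.21 and 25.1 ± 2.35 TPM. They were singled out because they carry signal in data that the comparisons above do not use. Groups of 2 libraries are too small for a test of outlying samples.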

How the results depend on the processing

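No paired analysis was possible because the study has a single group. Under the alternatives tried, 57 to 64 factors were counted as detected, the log2 ratio of Eef1a1 to Eef1a2 ranged from 9.12 to 9.77, and 1 factor was past 1.5-fold under each scaling, while 0 were past 2-fold. The median TPM of the factors was 68.0 over detected factors alone and 79.7 rescaled to nuclear protein-coding genes. The share of the factors was 1.33% on posterior means, 1.49% of counts and 1.74% of nuclear protein-coding TPM without globins. On counts without length, highest over lowest was 1.27 for eIF2, 3.38 for eIF2B, 4.17 for eIF3, 2.36 for eIF4F and 2.25 for eEF1B, and on posterior means 4.55 for eIF4F. On coding transcripts it was 2.99 for eIF2B, where the most abundant Eif2b4 transcript has no type in the annotation used and is left out, 6.62 for eIF4F and 1.41 for eEF1B. Pairs that turned round were Eif3j1 over Eif3j2 (0.076) and Eif2s1 over Eif2s2 (0.34) on counts, Eif2s1 over Eif2s2 when 1 library was left out (-0.193 to 0.0151), and Eef1b2 over Eef1d on coding transcripts (-0.45). Eif4a1 over Eif4a3 (0.76 without replicate 1) and Eif2ak4 over Eif2ak3 (0.75 with a pseudocount) came under the limit, while Eif4e over Eif4e2 (1.27 on counts) and Eif2a over Eif2d (-1.21 on coding transcripts) passed it. Of 23 pair ratios, 5 moved by over 1.5 times on coding transcripts, 10 on counts and 0 on posterior means, with a pseudocount or without either library. The pyrimidine run was found in 20 factors (40.8%, against 45.8% of all genes) within 15 bases and in 6 (12.2%, against 7.82%) with 6 pyrimidines. Counts without length and coding transcripts change by construction what is summed, and for the others the cause was not tested.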
